A study of Mus musculus with 6 samples.

Results

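The ubiquitin-specific proteases (USPs) other than Usp7 were examined in mouse regulatory T cells (Treg) to ask whether any member of the family was raised where Usp7 was reduced. Members were the genes whose single annotated symbol is Usp followed by a number and optional letters, with Usp7 and Usp18 set aside. This gave 37 of the 12393 genes on the arrays, read by 65 probe sets. Each gene was represented by its brightest probe set, judged by the average of the 6 arrays. A further 17 symbols of this form in the mouse reference had no probe set of their own and were not analysed here. Among them are Usp28, Usp30, Usp37, Usp44 and Usp46, and also Usp6nl, whose symbol matches the form without showing that its product is a USP. Of the 17, 3 (Usp50, Usp17lc and Usp17ld) share probe sets with another gene.

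USPs are cysteine proteases that cut ubiquitin from proteins and so can spare them from the proteasome or reverse ubiquitin signals. Usp7 acts on the ubiquitin ligase Mdm2, on p53 and, in Treg, on the lineage factor Foxp3. Several relatives share some of these substrates, which is why a paralogue could in principle stand in for another.

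Each array was hybridised with RNA of CD4+YFP+ cells sorted from C57BL/6 background mice that carry Foxp3cre, which places Cre in cells that express Foxp3. The 3 control arrays (B6_WT titles) carry Foxp3cre with no floxed allele named. The 3 USP7-titled arrays are described by the series text as fl-Usp7/Foxp3cre, but their genotype field reads fl-HDAC11/Foxp3cre, so the groups are named here by their titles. Age is not given in the sources used here, and whether each sample came from its own animal is not stated, so the p-values reflect only how far these samples vary, which may be technical variation. Values are log2 expression per probe set, and a difference is USP7-titled minus control.

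Usp7 itself read 11.69, 11.73 and 11.61 in the control samples, against 10.54, 10.69 and 10.76 in the USP7-titled ones, a difference of -1.01 (SE 0.07, limma adjusted p = 1.32e-06), or 49.6% of control. The groups did not overlap. Hdac11, the gene of the genotype field, read 6.65, 6.20 and 6.29 against 6.04, 5.65 and 5.74, a difference of -0.58 (SE 0.16, limma adjusted p = 0.0154). The Hdac11 difference did not pass when control replicate 1 was left out (-0.44), when USP7-titled replicate 2 was left out (-0.50) or with the mean of its probe sets (-0.40). The levels of these 2 genes do not settle which allele was deleted. By the exact permutation test over arrays, p was 0.1 for both brighter probe sets, the smallest value that 3 against 3 arrays allow. The dimmer Usp7 probe set stood at -0.98 (limma adjusted p = 2.24e-05 over all probe sets). The dimmer Hdac11 probe set, at a control mean of 4.04, stood at -0.22 and did not pass (limma adjusted p = 0.355 over all probe sets). By the permutation test its p was 0.4.

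Several other differences between the groups accompany every result below, and their part in those results was not tested. Arrays correlated at 0.991 or more within a group and at 0.969 to 0.974 between groups. The mean level of Foxp3 was 12.98 in the control group against 7.004 in the other, while that of Cd4 was 12.82 against 12.83. Of 31 measured cell cycle genes 30 rose, with a median difference of 2.41, and their mean level per array was 8.28 to 8.36 in controls against 10.47 to 10.54. Of 15 myeloid markers 11 rose and 1 fell, with mean levels of 6.99 to 7.37 against 8.40 to 8.63. The CD8 T and NK cell list had 5 of 12 higher and 1 lower (7.23 to 7.33 against 8.08 to 8.19). Of all genes, 17.0% passed as higher and 15.9% as lower. Beside those shares, the B cell list (2 of 8 higher, 1 lower) is too short to show a difference between the groups. The same holds for the dendritic cell list (2 of 6 higher, 1 lower). Mean levels per array overlapped in both, at 7.67 to 7.77 against 7.64 to 7.72 and at 6.15 to 6.25 against 6.16 to 6.35. Neither of the 2 erythroid genes passed. The Treg and T cell list had 6 of 9 lower, with a median difference of -0.12. Apart from Foxp3 these falls were small: Ctla4 (-0.36), Ikzf2 (-0.21), Il2ra (-0.17), Tnfrsf18 (-0.12) and Cd3e (-0.11). Xist read 12.50 against 5.30 and the Y-linked Eif2s3y 4.50 against 10.15, so the sex of the mice and the group cannot be told apart. As a sign of RNA quality, the Gapdh probe set nearest the 3' end exceeded the one at the 5' end by 0.989 to 1.23 in the control samples, against 0.907 to 0.986 in the others.

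Only 2 of the 37 USP genes rose in USP7-titled arrays, and 9 fell. The rises were Usp1, at 1.40-fold, and Usp39, at 1.35-fold. The falls were Usp11, Usp36, Usp9x, Usp33, Usp34, Usp3, Usp25, Usp8 and Usp19, which kept 38.6% to 78.7% of their control level. As a share of the members this is 5.41% higher and 24.3% lower, against 17.0% higher and 15.9% lower among all genes (limma adjusted p under 0.05). The remaining 26 members did not pass, with differences from -0.43 to 0.23.

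The median of the family lay below that of all genes, though the quartile ranges overlapped. Of the 37 differences 31 were below 0 (83.8%, against 57.3% of all genes), and the median was -0.23, against -0.05 for all genes. The quartiles of the members were -0.35 and -0.08, and those of all genes -0.23 and 0.18. With the mean of all probe sets of a gene, the members' median was -0.15, against -0.05 for all genes. The groups did not overlap in 15 members that were lower (40.5%, against 24.7% of all genes) and in 2 that were higher (5.41%, against 20.9%). In USP7-titled replicates 1, 2 and 3, 29, 26 and 30 members lay below their control mean (78.4%, 70.3% and 81.1%), against 53.4%, 56.1% and 56.6% of all genes. Scaled to the hybridization spikes, which are bacterial and phage control transcripts added to every sample, all differences moved up by 0.16. On that scale 17 of the 37 members lay above 0, and the members' median was -0.07, against 0.11 for all genes. There 3 members rose (8.11%, against 23.9% of all genes) and 6 fell (16.2%, against 7.62%). Because the same shift was added to every gene, this scaling cannot move the members relative to other genes, and a difference near 0 can change its sign with it.

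**Figure D1:**
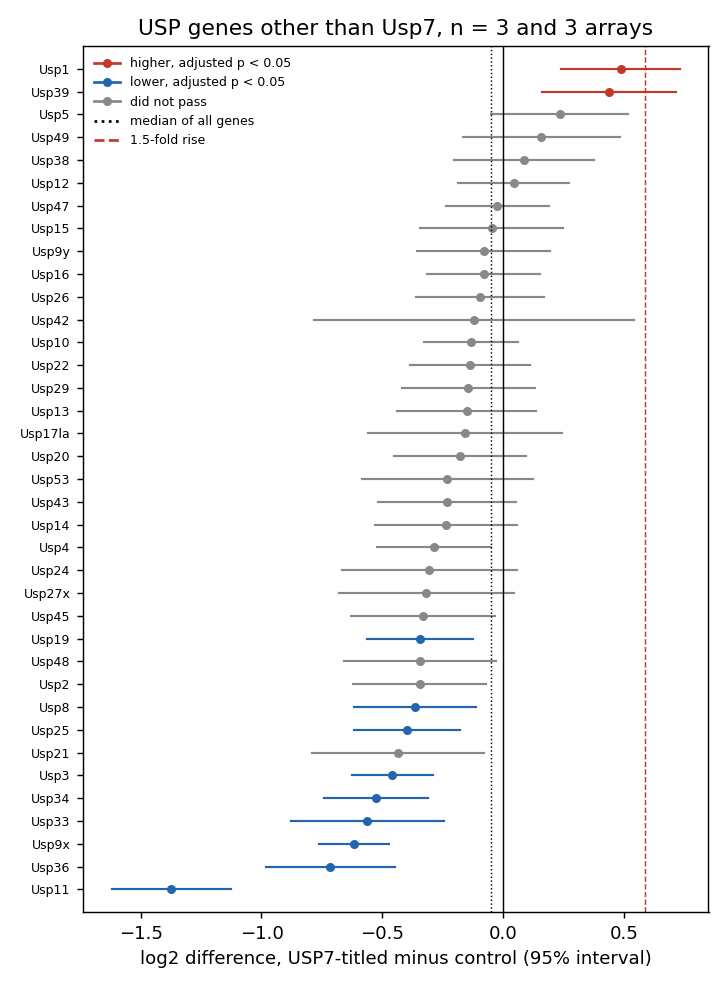
Log2 difference (USP7-titled minus control, x axis) of each of the 37 USP genes, with its 95% interval from limma, 3 arrays per group. Usp1 and Usp39 (red) lie above 0, 9 genes (blue) lie below 0, and the remaining 26 (grey) did not pass; the dotted line is the median of all genes, -0.05, and the dashed line marks a 1.5-fold rise.

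How large a rise in signal could have been missed is given by the upper end of each 95% interval. These intervals were not adjusted for the number of genes, and they reflect only the spread among these samples, which may be technical. At dim probe sets, such as those of Usp9y and Usp17la, background compresses a difference, so there they do not bound a rise of the transcript. By the brightest probe set of each gene, the upper end lay under 1.5-fold, a log2 difference of 0.58, in all 35 members that did not rise. A dimmer probe set of Usp14, one of the 35, rose by 0.45 (SE 0.12), so this bound does not cover every probe set. The highest upper ends among them were those of Usp42 (0.54), Usp5 (0.52) and Usp49 (0.48). In 14 of the 35 the upper end lay below 0. With the spike scaling 32 of the 37 upper ends lay under 1.5-fold, the exceptions being Usp1, Usp39, Usp5, Usp49 and Usp42.

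Usp1, which with its cofactor Wdr48 removes ubiquitin from the replication clamp Pcna and from Fancd2 in DNA crosslink repair, had the larger rise. It read 10.37, 10.31 and 9.90 in the control samples, against 10.67, 10.68 and 10.69 in the USP7-titled ones. The USP7-titled arrays lay close together and above every control, and control replicate 3 was low. The difference was 0.48 (SE 0.11, 95% interval 0.24 to 0.73, limma adjusted p = 0.00623). Its other probe sets rose too, by 0.44 (SE 0.08) and 0.65 (SE 0.12) in the fit over all probe sets. The rise remained between 0.34 and 0.64 and past the threshold in every alternative that was fitted at an adjusted p of 0.05. Usp1 rose in the same arrays as the cell cycle list. The smallest rise that passed in that list was that of the replication helicase subunit Mcm6 (0.39), while Tyms did not pass (0.08, limma adjusted p = 0.761). The difference of Wdr48 was -0.23 (SE 0.11, limma adjusted p = 0.153).

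Usp39, a splicing factor of the tri-snRNP that has the family's fold but is held to lack protease activity, was the other rise. It read 9.93, 9.87 and 10.38 in the control samples, against 10.42, 10.62 and 10.44 in the USP7-titled ones. The groups were separated by only a narrow gap, because control replicate 3 was high. The difference was 0.44 (SE 0.13, 95% interval 0.16 to 0.71, limma adjusted p = 0.0204), and the other probe set gave 0.44 (SE 0.13) as well. This call was lost without control replicate 1 (0.37), control replicate 2 (0.34) or USP7-titled replicate 2 (0.37), with adjusted p from 0.0734 to 0.0876. It was also lost when eBayes was run without a mean-variance trend, at an adjusted p of 0.0550. The range of its adjusted p over the alternatives was 0.000861 to 0.0876.

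**Figure D2:**
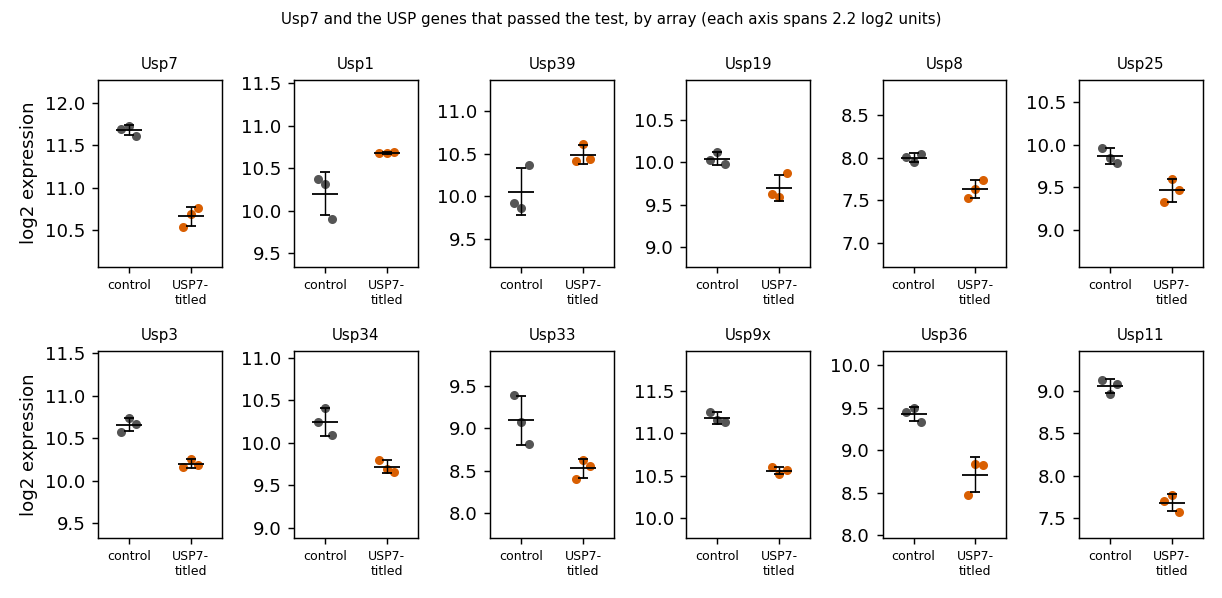
Log2 expression (y axis) in each of the 3 control (grey) and 3 USP7-titled (orange) arrays for Usp7 and the 11 USP genes that passed the test; bars are the mean and SD. Each panel spans the same range of log2 units. Usp11 shows the widest gap of the 11, and Usp39 and Usp19 the narrowest.

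Usp11 and Usp9x, both encoded on the X chromosome, had the lowest adjusted p-values of the family. Usp11, which acts in DNA repair and resembles Usp4 and Usp15, read 9.13, 8.96 and 9.08 in the control samples, against 7.70, 7.77 and 7.57 in the USP7-titled ones. The groups lay far apart: the difference was -1.37 (SE 0.11, 95% interval -1.62 to -1.13, limma adjusted p = 4.6e-06), more than the fall of Usp7 itself. A single probe set reports Usp11. Usp9x, a large protease that protects the survival factor Mcl1 among other substrates, read 11.26, 11.15 and 11.13 against 10.60, 10.52 and 10.56. It fell by 0.62 on the log2 scale (SE 0.07, limma adjusted p = 3.23e-05). Its 7 probe sets did not move alike: 4 fell, by 0.62, 0.40, 0.39 and 0.38, and 3 did not pass, at -0.14, -0.07 and 0.04. With the mean of all its probe sets the Usp9x difference was -0.28.

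The other sex-linked members did not pass. Usp27x read 7.83, 7.39 and 7.65 in the control samples, against 6.99, 7.44 and 7.49 in the USP7-titled ones, with overlapping groups. Usp26, a testis gene, was dim and overlapped, at 5.76, 5.54 and 5.67 against 5.58, 5.52 and 5.58. The Y-linked Usp9y, the counterpart of Usp9x, read 4.66, 4.55 and 4.38 against 4.51, 4.37 and 4.48, and so was equally dim in both groups although Eif2s3y was not. Among the X-linked genes as a whole, 63 of 402 fell (15.7%) and 65 rose, with a median of -0.06, against 2 falls in the 4 X-linked members. Usp11 had the 7th largest fall among the 402. Without genes on X and Y, 2 of 32 members rose and 7 fell, and the members' median was -0.21. Of all 11983 genes in that fit 2039 rose and 1915 fell, with a median of -0.05.

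Usp36, a nucleolar protease that stabilises Myc and acts in ribosomal RNA production, had the largest fall outside the X chromosome. It read 9.45, 9.50 and 9.33 in the control samples, against 8.47, 8.84 and 8.83 in the USP7-titled ones. All USP7-titled arrays were lower, replicate 1 the most. The difference was -0.71 (SE 0.12, limma adjusted p = 0.000879), and its second probe set fell by 0.84 (SE 0.11). Its substrate gene Myc fell by 0.77 in the same arrays.

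The windows around the starts of Usp11 and Usp36, the largest falls of the family on X and on the autosomes, are printed for what they hold. Each covers 250 bases before and 50 bases after the start in RefSeq (GRCm38.p6), written 5' to 3' on the gene's strand. Usp11 lies at chrX:20703659-20703958 on the plus strand and Usp36 at chr11:118290195-118290494 on the minus strand. Capitals mark matches on either strand to the ETS core CGGAAG, the CRE core TGACG and the CCAAT box CCAAT.
Usp11: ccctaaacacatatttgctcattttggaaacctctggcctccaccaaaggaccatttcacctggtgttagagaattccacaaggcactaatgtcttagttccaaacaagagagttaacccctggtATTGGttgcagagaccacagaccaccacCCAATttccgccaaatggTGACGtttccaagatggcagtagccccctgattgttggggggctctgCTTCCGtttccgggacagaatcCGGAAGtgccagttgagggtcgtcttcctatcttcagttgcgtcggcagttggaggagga
Usp36: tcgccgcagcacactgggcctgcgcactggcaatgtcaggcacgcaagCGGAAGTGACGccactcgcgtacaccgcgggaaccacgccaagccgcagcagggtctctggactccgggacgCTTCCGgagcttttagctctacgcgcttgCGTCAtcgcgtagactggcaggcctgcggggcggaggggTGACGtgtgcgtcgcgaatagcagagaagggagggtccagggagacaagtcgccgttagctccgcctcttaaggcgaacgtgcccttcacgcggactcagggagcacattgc

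Of the 37 members 27 had such a window, as had 7 of the 9 that fell. Usp1, Usp39, Usp9x and Usp33 had no entry. Both printed windows hold 2 matches to CGGAAG, with 1 match to TGACG in Usp11 and 3 in Usp36, and CCAAT is matched 2 times in Usp11 and 0 times in Usp36. In the window of Usp36, one CGGAAG runs directly into TGACG. On either strand CGGAAG is found in 12 of the 27 member windows (44.4%), against 16.9% of all 32851 windows in the table, and TGACG in 12 of 27 (44.4%), against 20.8%. The cell cycle element TTTGAA is found in 2 of 27 (7.41%), against 17.9%. CCAAT is found in 9 of 27 (33.3%), against 37.4%, and the E box CACGTG in 2 of 27 (7.41%), against 7.15%. The E2F element TTTCCCGC is found in 1 of 27 (3.70%), against 1.07%. Member windows are richer in G and C, with a median of 65.0% against 52.7%, and the share of a motif was not compared at equal base composition. Of the 7 windows of genes that fell, 5 hold CGGAAG (Usp3, Usp8, Usp11, Usp19 and Usp36) and 5 hold TGACG (Usp8, Usp11, Usp19, Usp25 and Usp36).

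Usp33, Usp20, Usp8 and Usp19 are described together because each is known to act at membranes, a grouping made with their values seen. Usp33, which acts on the beta-adrenergic receptor and Robo1, read 9.39, 9.07 and 8.81 in the control samples, against 8.41, 8.62 and 8.56 in the USP7-titled ones, a difference of -0.56 (SE 0.14, limma adjusted p = 0.0112). Its controls were widely spread, and without control replicate 1 the difference was -0.41 (adjusted p = 0.0513). Its close relative Usp20 overlapped between groups, at 8.83, 8.62 and 8.71 against 8.38, 8.75 and 8.48, a difference of -0.18 (95% interval -0.45 to 0.09). Usp8, which sorts receptors at endosomes with the adaptors Stam and Stam2, read 8.01, 7.95 and 8.05 against 7.53, 7.64 and 7.74. It fell by 0.37 on the log2 scale (SE 0.11, limma adjusted p = 0.0294), and Stam2 fell by 0.43, while Stam stood at -0.14 and their partner Hgs at 0.06, neither of which passed. The Usp8 call was lost without any 1 of the 3 control arrays or without USP7-titled replicate 1 or 2, with differences of -0.31 to -0.39 and adjusted p up to 0.0886. Usp19, anchored in the endoplasmic reticulum, read 10.03, 10.13 and 9.98 against 9.63, 9.59 and 9.88. Its difference was -0.34 (SE 0.10, limma adjusted p = 0.0196), and its 2 dimmer probe sets did not pass, at -0.15 and -0.23. Without control replicate 1 or 2, or USP7-titled replicate 1 or 2, the Usp19 call was lost, at -0.35, -0.30, -0.31 and -0.29. With the mean of its probe sets the difference was -0.24. With the spike scaling Usp8 (-0.21) and Usp19 (-0.19) did not pass.

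Usp3, Usp16 and Usp49 act on ubiquitin carried by histones. Usp3, which removes ubiquitin from histone H2A, read 10.58, 10.74 and 10.67 in the control samples, against 10.16, 10.26 and 10.19 in the USP7-titled ones. The groups were clearly apart, with a difference of -0.46 (SE 0.08, limma adjusted p = 0.000737). Its second probe set fell by 0.40, and with the spike scaling the difference was -0.30 (adjusted p = 0.0393). Usp16, an H2A protease of mitotic cells, overlapped, at 8.68, 8.73 and 8.75 against 8.52, 8.74 and 8.66. Usp49, an H2B protease, overlapped too, with a difference of 0.16 (95% interval -0.17 to 0.48).

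Usp22, the protease of the SAGA coactivator complex that has been tied to Foxp3, read 7.52, 7.52 and 7.45 in the control samples, against 7.43, 7.29 and 7.36 in the USP7-titled ones. Every USP7-titled array was lower by a small margin, yet the difference of -0.14 did not pass (95% interval -0.38 to 0.11, limma adjusted p = 0.392). Of its partners in the deubiquitinase module, Atxn7 fell by 0.39 (SE 0.11), Eny2 rose by 0.27 (SE 0.08) and Atxn7l3 read a mean of 10.37 in both groups. Usp21, another protease reported to act on Foxp3 in Treg, read 8.78, 8.92 and 9.001 against 8.87, 8.28 and 8.25. USP7-titled replicate 1 lay within the controls, and the other 2 arrays were well below them. The difference was -0.43 (95% interval -0.79 to -0.08, limma adjusted p = 0.0605). With that array left out, Usp21 stood at -0.64 (adjusted p = 0.00285, against 0.00285 to 0.223 over the alternatives).

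Usp2, Usp10, Usp15 and Usp42 are linked to Mdm2 and p53, the pathway of Usp7 best known outside Treg. Usp47, held to be the closest relative of Usp7, read 9.16, 9.08 and 9.06 in the control samples, against 8.998, 9.11 and 9.12 in the USP7-titled ones. The groups overlapped and spread little, and the difference was -0.03 (SE 0.10, 95% interval -0.24 to 0.19, limma adjusted p = 0.869). The upper end of that interval is a rise of 1.14-fold, and a dimmer probe set stood at 0.17 (SE 0.12). Usp15, which stabilises Mdm2 in T cells, read 8.93, 8.87 and 8.71 against 9.07, 8.64 and 8.66, a difference of -0.05 (95% interval -0.34 to 0.25). Usp10, which acts on p53 in the cytoplasm, read 9.85, 9.92 and 9.86 against 9.63, 9.79 and 9.82. All its USP7-titled arrays lay just below the controls, a difference of -0.13 (95% interval -0.33 to 0.06).

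Usp2, an Mdm2 and cyclin D1 protease, read 6.81, 6.72 and 6.85 in the control samples, against 6.56, 6.28 and 6.50 in the USP7-titled ones. The groups did not overlap, but the difference of -0.35 did not pass (SE 0.12, limma adjusted p = 0.0547); its other probe set gave -0.37. Without USP7-titled replicate 1 the Usp2 difference was -0.40 (adjusted p = 0.0413), within a range over the alternatives of 0.0332 to 0.311. Usp42, also a p53 protease, had the widest spread of the members in the USP7-titled arrays, at 6.29, 6.83 and 6.41 against 5.53, 6.80 and 6.85, since USP7-titled replicate 1 stood far below the other 2. In the same arrays Mdm2 itself rose by 0.41 (SE 0.07), while its relative Mdm4 fell by 0.58 (SE 0.08).

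Usp4, among the brightest probe sets of the family and known to act on the Th17 factor RORgt, read 10.30, 9.998 and 10.23 in the control samples, against 9.79, 10.06 and 9.81 in the USP7-titled ones. The groups overlapped through control replicate 2 and USP7-titled replicate 2. The difference was -0.29 (95% interval -0.52 to -0.05, limma adjusted p = 0.0622). Leaving out control replicate 2 gave -0.38 (adjusted p = 0.0302), and leaving out USP7-titled replicate 2 gave -0.37 (adjusted p = 0.0275), within a range of 0.0275 to 0.495 over the alternatives.

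Usp5 and Usp14 recycle ubiquitin from free chains or at the proteasome, and Usp13 is described here beside Usp5. Usp5, which takes apart free ubiquitin chains, read 8.37, 8.17 and 8.22 in the control samples, against 8.51, 8.27 and 8.68 in the USP7-titled ones. Its difference of 0.23 (95% interval -0.05 to 0.52, limma adjusted p = 0.199) was the largest upward one among members that did not pass, and it passed with the spike scaling (0.39, adjusted p = 0.0384; 0.0384 to 0.494 over the alternatives). Usp13, its relative, stood at -0.15 (95% interval -0.44 to 0.14).

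Usp14, which works on the proteasome, was read differently by its 3 probe sets. The brightest read 8.98, 9.001 and 8.79 in the control samples, against 8.95, 8.52 and 8.58 in the USP7-titled ones, a difference of -0.24 (limma adjusted p = 0.204). A dimmer one rose by 0.45 (SE 0.12, limma adjusted p = 0.015 over all probe sets), from a mean of 7.92 to one of 8.37. The remaining one stood at -0.13. Without USP7-titled replicate 1 the brightest probe set was lower, at -0.37 (adjusted p = 0.0367, against 0.0367 to 0.867 over the alternatives). The direction for Usp14 thus depends on the probe set.

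Usp34 and Usp25 act in receptor signalling. Usp34, which acts on Axin in Wnt signalling, read 10.24, 10.41 and 10.09 in the control samples, against 9.80, 9.70 and 9.66 in the USP7-titled ones, a difference of -0.53 (SE 0.10, limma adjusted p = 0.00169). Its second probe set fell by 0.36. Usp25, which restrains IL-17 receptor signalling, read 9.96, 9.85 and 9.78 against 9.33, 9.60 and 9.47. It fell by 0.40 on the log2 scale (SE 0.10, limma adjusted p = 0.01001); the call was lost without control replicate 1 (-0.35, adjusted p = 0.0512) and with the spike scaling (-0.24, adjusted p = 0.145).

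Usp12, which like Usp1 is activated by Wdr48 and which supports T cell receptor levels at the surface, overlapped between groups, at 9.85, 9.76 and 9.85 against 9.77, 10.08 and 9.74. Its difference was 0.04 (95% interval -0.19 to 0.27), with dimmer probe sets at -0.18 and -0.17. Wdr20, the other cofactor of Usp12, stood at -0.25 (SE 0.14, limma adjusted p = 0.199).

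Usp24, Usp38, Usp45 and Usp48 did not pass by their brightest probe sets, with differences of -0.31, 0.08, -0.33 and -0.35. For Usp24 and Usp48, USP7-titled replicate 1 was the lowest array, at 8.84 and 8.77 against 9.50 and 9.55 and against 9.28 and 9.33 in the other 2. Dimmer probe sets of both fell, by 0.42 for Usp24 and 0.58 for Usp48. Without USP7-titled replicate 3 the brightest Usp48 probe set was lower (-0.45, adjusted p = 0.0479, against 0.0256 to 0.424 over the alternatives).

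Of the 37 members 8 lay below the 30th percentile of all genes in mean brightness, and by limma 0 of them passed, with 1, Usp2, at an unadjusted p under 0.05. These were Usp9y, Usp17la, Usp43, Usp26, Usp53, Usp29, Usp42 and Usp2, several of which are known from testis. Brightness ranks probe sets rather than transcript numbers, and a difference at low signal is compressed by background. Usp17la, Usp29, Usp43 and Usp53 stood at -0.16, -0.14, -0.23 and -0.23. Among the 29 brighter members 2 rose and 9 fell, against 22.8% and 20.1% of all genes at or above that brightness.

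Where a member had more than 1 probe set the readings mostly had 1 sign. Of 17 such members 12 had all probe sets on the same side of 0, and 5 had one on the other side (Usp12, Usp47, Usp43, Usp14 and Usp9x). Only for Usp14 did a probe set of opposite sign pass. Counted by probe set, 6 of 65 rose (9.23%, against 16.3% of all 20380 probe sets) and 17 fell (26.2%, against 16.7%). The 6 that rose belong to Usp1 (3), Usp39 (2) and Usp14 (1).

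**Figure D3:**
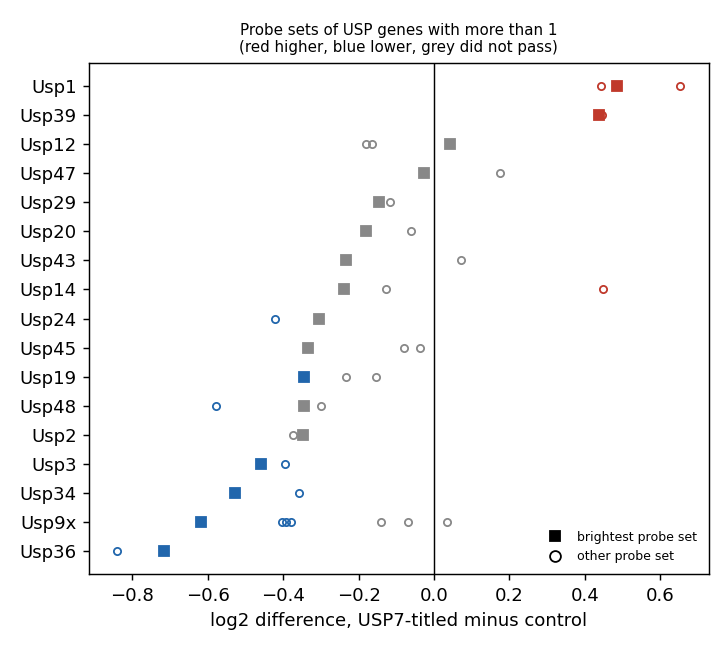
Log2 difference (x axis) of every probe set of the 17 USP genes that have more than 1; squares mark the brightest probe set and open circles the others, red higher, blue lower and grey not past the threshold in the fit over all probe sets. All 3 Usp1 and both Usp39 probe sets lie between 0.44 and 0.65, while Usp14 has probe sets on both sides of 0.

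Genes listed under other deubiquitinase families moved in both directions. The list went by family, and whether each product is an active deubiquitinase was not considered. Of 29 measured members of the UCH, OTU, Josephin, JAMM and MINDY families and Zup1, 7 rose (24.1%, against 17.0% of all genes) and 6 fell (20.7%, against 15.9%). Their median was -0.03, against -0.05 for all genes and -0.23 for the USP genes. The largest rise was Uchl5 (0.71, SE 0.08, limma adjusted p = 7.15e-05), which, like Usp14, binds the proteasome. It read 9.69, 9.59 and 9.76 in the control samples, against 10.32, 10.42 and 10.45 in the USP7-titled ones. The MINDY protease Mindy3 rose by 0.70 (SE 0.10), from 9.79, 9.53 and 9.57 to 10.34, 10.41 and 10.23. Rises also included Psmd7 (0.49) and Psmd14 (0.38) of the proteasome lid and Cops5 (0.36) and Cops6 (0.40) of the COP9 signalosome. The largest falls were Zup1 (-0.66), Stambpl1 (-0.51), Otud5 (-0.49) and Zranb1 (-0.45), and the NF-kappaB brake Tnfaip3 fell by 0.43. Whether the USP genes differ from these families was not tested.

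Of 29 measured partners and substrates of USPs 10 rose (34.5%, against 17.0% of all genes) and 5 fell (17.2%, against 15.9%), with a median of 0.02. The largest rises were those of the cyclin gene Ccna2 (3.29), the DNA methylation cofactor Uhrf1 (2.32), Cdc25a (0.71) and Dnmt1 (0.67), and Pcna rose by 0.63. Several of these genes belong to DNA replication and cell division. Ccna2 and Pcna are also members of the cell cycle list, so that they moved with it is no separate result. Of 8 measured genes for ubiquitin-like proteins and activating enzymes 2 rose and 1 fell: Sae1 of the SUMO pathway rose by 0.77, Nedd8 rose by 0.27, and Uba7, which activates Isg15, fell by 0.55.

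**Figure D4:**
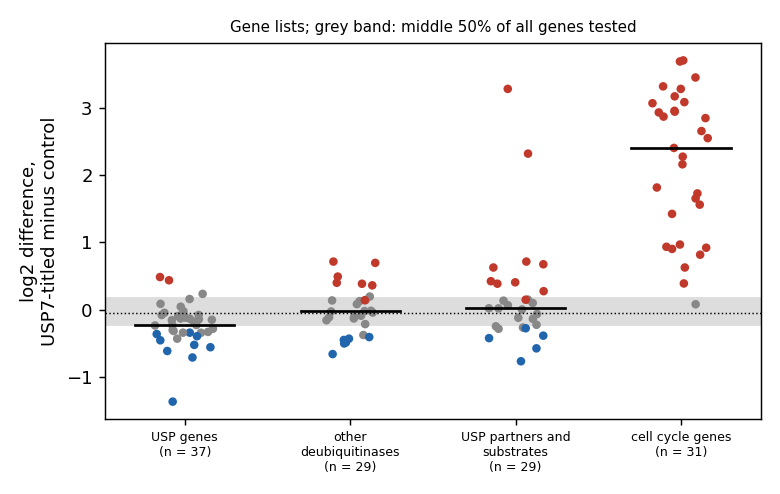
Log2 difference (y axis, USP7-titled minus control) of each gene in 4 lists, with its median as a bar; red and blue points passed as higher and lower. The grey band spans the quartiles of all genes (-0.23 to 0.18) and the dotted line their median; the USP genes have a median of -0.23 and the cell cycle genes of 2.41.

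The precision of each single call is limited by 3 arrays per group. The spread among replicates was much the same for USP genes as for all genes, with a median SD of 0.11 in controls and 0.14 in USP7-titled arrays, against 0.11 and 0.13. Leaving out control replicate 1 brought the number of members that fell from 9 to 5 of 37. Among all 12393 genes the number that fell went from 1976 to 1435 with the same array left out. Leaving out control replicate 1, control replicate 2 or USP7-titled replicate 2 left 1 member that rose, Usp1. Because the arrays read RNA pooled from many cells, fewer cells of a type and less RNA per cell cannot be told apart.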

How the data were processed

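Expression was read on 6 arrays, 3 per group. The authors deposited log2 expression per probe set; how they summarised and normalized it is not given in the sources used here, and that the scale is log2 was judged by the range of the values. Array medians were 7.91 to 7.96, and no further normalization was applied. Of 22690 probe sets, 64 array controls, 691 with several symbols and 1555 with none were set aside, leaving 20380 for 12393 genes; all 37 members matched the reference gene table (GRCm38.p6) by identifier. No genome build is named for the arrays.

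The linear models were fitted by limma 3.58.1 under R 4.3.3, with lmFit and a trended eBayes. Each p-value is two-sided and was adjusted by Benjamini and Hochberg's method across every gene tested, with 0.05 as the threshold. A second fit over all probe sets served the probe set results. The script was tested on simulated data. All members are named. Values in every array are given for those that passed by at least 0.5, the 5 brightest and sex-linked ones; Usp47, other members and their grouping by role were chosen with values seen. Of each gene list at most 4 of the largest passing members were to be named, and Psmd7, Psmd14, Cops5, Cops6, Tnfaip3, Pcna and genes named beside a member are additions. A planned ranking by protein likeness to Usp7 was not made, as no protein table was used here. Members and lists were chosen with earlier results of these data known.

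Alternatives were other scalings, filters, probe set choices, moderation settings, thresholds, a replicate block and leaving out each array.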

Additional observations from a re-analysis of the deposited data

How the results depend on the processing

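Of the 11 members that passed, 6 (Usp1, Usp3, Usp9x, Usp11, Usp34 and Usp36) kept their direction and their side of the threshold at an adjusted p of 0.05 in each of the 11 other settings that holds them and in the 6 leave-one-out fits, and none of the 11 that passed changed direction. Of the 26 that did not pass, 6 passed in at least 1 alternative: Usp2, Usp4, Usp14, Usp21, Usp48 as lower and Usp5 as higher. The number of members higher, 2, became 1 with eBayes without trend, 1 at an adjusted p under 0.01 and 0 when a difference of at least 0.5 was also asked for (by limma 2 members were higher at an unadjusted p under 0.05, both by less than 0.5). The number lower, 9, became 5 at an adjusted p under 0.01 and 5 with the minimum difference. Leaving out 1 array gave 1 to 2 members higher and 5 to 10 lower, and among all genes 1699 to 2095 higher and 1435 to 1925 lower. Among all genes, calls at an adjusted p under 0.01 numbered 1489 higher and 1206 lower, and with the minimum difference 1134 and 972, against 2102 and 1976. With the spike scaling 75.9% of calls were higher, against 51.5% as deposited.

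The titles number replicates 1 to 3 in both groups. Deviations of same-numbered arrays correlated at -0.06 to 0.09, and those of differently numbered arrays at -0.15 to 0.08. These values show no pairing, but with 3 arrays per group they cannot exclude it. With the replicate block 2 members were higher and 9 lower.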

Other observations

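A probe set annotated to both Usp50 and the RNA polymerase subunit gene Polr2l belongs to no member. It read 11.23, 11.06 and 11.11 in the control samples, against 11.75, 11.64 and 11.63 in the USP7-titled ones, and the groups did not overlap. The annotation does not say how much of the signal is from either gene. Of 2 dim probe sets shared by the testis-linked Usp17lc and Usp17ld, one read 5.12, 4.84 and 4.94 against 4.99, 5.18 and 5.26, and the other 5.35, 5.46 and 5.23 against 5.49, 5.26 and 5.54, with overlapping groups in both.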
